A study of Mus musculus with 4 samples.

Results

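Macrophage scavenger and identity genes were read in lung tumours of CD109-/- and CD109+/+ mice. The set comprised 10 genes, Cd163, Mrc1, Msr1, Marco, Siglec1, Stab1, Adgre1, Cd68, Chil3 and Pparg, of 23787 genes that the array names. Members were taken as every probe whose accession belongs to one of these genes, which gave 15 of 56605 probes. All 10 genes had at least 1 probe that Agilent's software marked well above background on each array of a genotype, and 12 of the 15 probes met that rule. Cd163 met it through the CD109-/- arrays alone, so its difference was in part required by the rule.

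The tumours came from KP mice on a C57BL/6J background, which develop lung adenocarcinoma once Cre recombinase reaches the lung. Adenovirus carrying Cre was given into the trachea of all mice 88 to 92 days before RNA was taken; the sources used here do not give the promoter driving Cre, the ages of the mice or how the CD109 allele was made. The CD109-/- group held 2 samples, replicate 1 from a male and replicate 2 from a female, and the CD109+/+ group held 2 samples, both from females. Each was hybridised to 1 single-colour Agilent array, and the labels do not say how many tumours or animals went into a sample, so the p-values speak for the spread among these 4 samples, which may be technical.

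Macrophages clear modified lipoproteins, sugars, dead cells and haemoglobin through scavenger and lectin receptors that are grouped by structure rather than ancestry. In the lung, alveolar macrophages live in the airspace and depend on the nuclear receptor PPAR-gamma, and in mice they display MARCO. Interstitial macrophages lie in the tissue around vessels and airways, and perivascular and resident tissue macrophages elsewhere are known for CD163, stabilin-1 and sialoadhesin. Mrc1, Adgre1 and Cd68 are used as markers of both populations.

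Between 64.3% and 67.0% of spots were well above background on each array, and 0 were saturated. Values below are log2 of the processed signal relative to the 75th percentile of the same array, so a level belongs to 1 probe and is not comparable between genes. Differences are CD109-/- minus CD109+/+ with limma's standard error (SE, n = 2 per genotype). The targeted gene Cd109 was not well above background on either CD109-/- array (-7.98 and -7.87), against -3.70 and -4.66 on the CD109+/+ arrays. With the CD109-/- arrays set at their lowest signal well above background, Cd109 was 2.92-fold lower. Whether its probe lies in the deleted part was not examined. The tumour epithelial marker genes Epcam, Cdh1, Krt8, Krt18, Nkx2-1, Sftpc, Sftpb, Napsa and Lamp3 were well above background in both genotypes. The arrays were few, which limits the precision of every value, and an exact two-sided permutation test of 2 against 2 cannot give a p below 0.333.

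The comparison of genotypes asked how these genes stood in tumours without CD109. In CD109-/- tumours 9 of the 10 genes had higher values, with a median log2 difference of 0.56, against 50.3% of the 16443 genes tested and a median of 0.00 over all of them. The largest differences were those of the haemoglobin scavenger receptor gene Cd163, the mannose receptor gene Mrc1, the sialoadhesin gene Siglec1 and the F4/80 gene Adgre1. The alveolar genes Marco, Chil3 and Pparg overlapped between genotypes. By limma 0 of the 10 genes passed an adjusted p of 0.05 over all genes (background 0%, lowest adjusted p of all genes 0.266), and 4 had an unadjusted p under 0.05 with higher values, against 5% of all genes (2.41% had such a p with lower values, 7.41% in either direction). Both CD109-/- arrays stood above both CD109+/+ arrays for 6 of the 10 genes, against 20.3% of all genes. Over the 9 genes well above background on all 4 arrays the corresponding counts were 8 higher, 3 at an unadjusted p under 0.05 and 5 without overlap. Of the 15649 genes tested under that filter 50.6% had higher values and 757 had such a limma p with higher values, and the share without overlap was not computed. On the females alone, without CD109-/- replicate 1, 8 of the 10 genes had higher values, against 51.7% of 16818 genes, the exceptions being Msr1 and Pparg. The genes were chosen with earlier results of these data known, so these counts describe them and are no test. In bulk tumour RNA, more macrophages and more RNA of a gene per macrophage cannot be told apart.

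**Figure D1:**
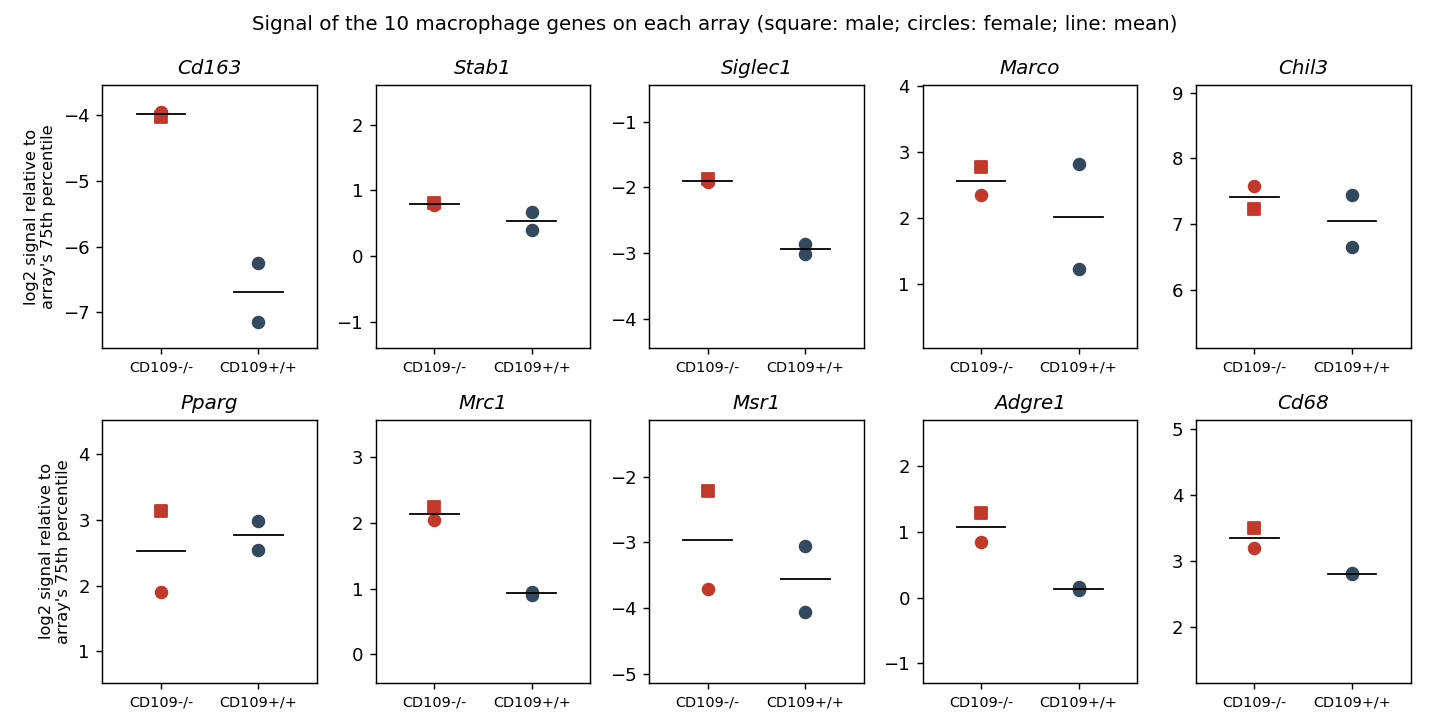
Log2 signal of the brightest tested probe of each of the 10 genes, relative to the 75th percentile of the same array, on the CD109-/- arrays (red) and the CD109+/+ arrays (blue-grey); lines are means of 2 arrays, every panel spans the same log2 range, and the square is the only male. The CD109-/- points lie above the CD109+/+ points for Cd163, Stab1, Siglec1, Mrc1, Adgre1 and Cd68, and the points of Marco, Chil3, Pparg and Msr1 interleave.

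The promoters of Cd163 and Mrc1, the genes with the largest differences, and of Marco, an alveolar gene whose groups overlapped, are shown so that the regions that start these transcripts can be compared. They are RefSeq sequences of build GRCm38.p6, 250 bases before to 50 after the annotated start, and 7 of the 10 genes had an entry. Capitals mark the letters GAGGAA, read on either strand (TTCCTC on the other), which form the core of the site of PU.1, the factor that specifies myeloid cells.
Cd163, chr6:124304401-124304700 (+ strand): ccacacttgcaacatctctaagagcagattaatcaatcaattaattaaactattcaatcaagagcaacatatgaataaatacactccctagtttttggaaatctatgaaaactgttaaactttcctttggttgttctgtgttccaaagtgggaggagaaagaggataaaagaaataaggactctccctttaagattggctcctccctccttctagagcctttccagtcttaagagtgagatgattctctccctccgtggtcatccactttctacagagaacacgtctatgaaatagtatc
Mrc1, chr2:14229164-14229463 (+ strand): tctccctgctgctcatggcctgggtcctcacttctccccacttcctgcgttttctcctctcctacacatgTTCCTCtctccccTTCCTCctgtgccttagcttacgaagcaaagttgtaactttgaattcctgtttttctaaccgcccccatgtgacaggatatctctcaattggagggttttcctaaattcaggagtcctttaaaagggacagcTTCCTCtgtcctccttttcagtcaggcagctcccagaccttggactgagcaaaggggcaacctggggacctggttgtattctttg
Marco, chr1:120504975-120505274 (- strand): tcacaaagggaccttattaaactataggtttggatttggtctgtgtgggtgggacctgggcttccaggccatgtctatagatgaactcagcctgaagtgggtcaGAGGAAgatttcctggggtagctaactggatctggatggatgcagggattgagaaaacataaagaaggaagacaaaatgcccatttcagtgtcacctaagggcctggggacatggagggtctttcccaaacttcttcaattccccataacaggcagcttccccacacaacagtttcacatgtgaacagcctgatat
The Mrc1 promoter held 3 matches, the Marco promoter 1 and the Cd163 promoter 0. The 7 genes had 9 promoters in the table, of which 5 held at least 1 match, and 28.3% of all 32851 promoters of this length did; Stab1 and Cd68 were among them, as was Pparg at 1 of its 3 annotated starts. A match to AP-1 (TGANTCA, either strand; 7.81% of all promoters) was found for Cd68 only, and one to C/EBP (TTGCNNAA, either strand; 10.8%) for Cd68 and Pparg. None of the 3 sequences printed held a match to AP-1 or C/EBP. A match is a description of the letters and not a site of binding.

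The genes named for interstitial or resident macrophages came first. Cd163, the receptor for complexes of haptoglobin and haemoglobin, had log2 signals of -4.03 and -3.95 in CD109-/- tumours, against -7.14 and -6.26 in CD109+/+ tumours. Both CD109-/- arrays were well above background and neither CD109+/+ array was (limma adjusted p = 0.412 from the measured values). With the CD109+/+ arrays set at their lowest signal well above background, -5.62 and -5.88, Cd163 was 3.39-fold higher in CD109-/- tumours. This bound is not a strict minimum. On CD109+/+ replicate 1 a further Adgre1 probe at -5.52 lay above that floor and was still not well above background. Of all genes, 0.943% had a measured difference at least as large as the Cd163 bound, Cd163 included. The other differences were not set at a floor, and Cd163 was tested through its CD109-/- arrays alone. The share is thus a description and no support for the difference. With normexp background correction, which adds an offset to every spot and ran on median spot and background signals, the Cd163 difference was 0.41. Which of these changes lowered it was not tested. A further Cd163 probe was not well above background on any array, with -8.09 and -7.94 on the CD109-/- arrays, against -7.89 and -8.17 on the CD109+/+ arrays, and so could not be compared.

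Siglec1 encodes sialoadhesin, a sialic acid lectin of resident macrophages. It had log2 signals of -1.87 and -1.92 in CD109-/- tumours, against -3.01 and -2.86 in CD109+/+ tumours. The replicates lay closer to each other than the genotypes did, and the difference was 1.04 ± 0.21 (limma adjusted p = 0.507), or 0.59 with normexp. A further Siglec1 probe was not well above background on any array. Stab1 encodes stabilin-1, an endocytic receptor of resident macrophages and of sinusoidal and lymphatic endothelium. Its log2 signals were 0.81 and 0.78 in CD109-/- tumours, against 0.67 and 0.39 in CD109+/+ tumours. The groups did not overlap, but the difference of 0.26 ± 0.22 was near its error (limma adjusted p = 0.831).

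Among the alveolar genes, Marco, a class A scavenger receptor that binds bacteria and particles, had log2 signals of 2.77 and 2.35 in CD109-/- tumours, against 2.83 and 1.22 in CD109+/+ tumours. CD109+/+ replicate 2 was the low array, and CD109+/+ replicate 1 was the highest of the 4. The Marco difference was 0.54 ± 0.59 (limma adjusted p = 0.876) and stood at -0.27 without CD109+/+ replicate 2 and 1.34 without CD109+/+ replicate 1. Chil3 encodes the chitinase-like lectin Ym1, abundant in mouse alveolar macrophages and also made by monocytes and neutrophil precursors. It had log2 signals of 7.23 and 7.59 in CD109-/- tumours, against 7.45 and 6.65 in CD109+/+ tumours, overlapping, with a difference of 0.36 ± 0.35 (limma adjusted p = 0.858) and of -0.040 without CD109+/+ replicate 2. The near copy Chil4 gave -0.50 and -0.24 on the CD109-/- arrays, against -0.64 and -1.18 on the CD109+/+ arrays, a difference of 0.54 ± 0.29, and cross-hybridisation between the copies was not tested.

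Pparg, the nuclear receptor that sets alveolar macrophage identity and is also used by other cells, adipocytes among them, was the only member with a lower mean in CD109-/- tumours. Which cells of the tumour, epithelium included, gave its signal was not tested. Its log2 signals were 3.14 and 1.90 in CD109-/- tumours, against 2.99 and 2.55 in CD109+/+ tumours. The CD109-/- arrays held both the highest value, on the male array, and the lowest. The difference was -0.24 ± 0.48 (limma adjusted p = 0.935), and it was -0.86 without CD109-/- replicate 1, which leaves females only, and 0.37 without CD109-/- replicate 2.

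The genes shared by macrophage populations were read next. Mrc1, whose product takes up mannosylated glycoproteins and collagen, had log2 signals of 2.23 and 2.04 in CD109-/- tumours, against 0.96 and 0.90 in CD109+/+ tumours. Its difference of 1.21 ± 0.22 exceeded the spread on either side (limma adjusted p = 0.504), and 2.52% of all genes had one as large. It ranged from 1.11 to 1.31 over the 14 alternatives, the narrowest relative range among the 4 members with the largest differences. Some of these alternatives could not change a difference. Adgre1, which encodes F4/80, an adhesion G protein-coupled receptor used to mark mouse macrophages, had log2 signals of 1.29 and 0.85 in CD109-/- tumours, against 0.16 and 0.12 in CD109+/+ tumours. The difference was 0.94 ± 0.25 (limma adjusted p = 0.561). A further Adgre1 probe was not well above background on any array.

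Cd68 encodes a lysosomal glycoprotein of phagocytes. Its brightest probe had log2 signals of 3.49 and 3.20 in CD109-/- tumours, against 2.80 and 2.81 in CD109+/+ tumours. A further Cd68 probe had 1.00 and 0.90 in CD109-/- tumours, against 0.48 and 0.52 in CD109+/+ tumours. Both probes were without overlap, with differences of 0.54 ± 0.23 by gene (limma adjusted p = 0.700) and 0.45 ± 0.23 for the further probe in the fit by probe (limma adjusted p = 0.769). Msr1, the founding class A scavenger receptor for modified lipoproteins, had log2 signals of -2.22 and -3.71 in CD109-/- tumours, against -3.05 and -4.05 in CD109+/+ tumours. The male CD109-/- array was highest, and CD109-/- replicate 2 lay between the CD109+/+ arrays. Its difference was 0.59 ± 0.63 (limma adjusted p = 0.871), and a further Msr1 probe differed by 0.50 ± 0.51. Without CD109-/- replicate 1 the Msr1 difference was -0.16.

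**Figure D2:**
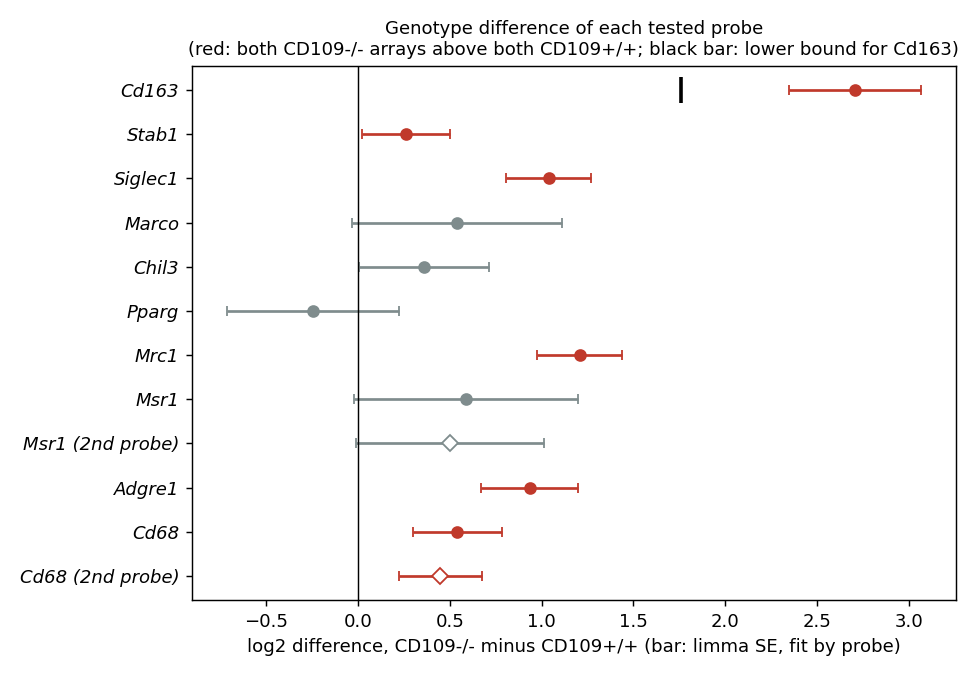
Log2 difference of the 12 tested probes of the 10 genes, CD109-/- minus CD109+/+, with limma's SE from the fit by probe; filled circles are the brightest tested probes, open diamonds further probes, red points those whose groups did not overlap and grey points those that overlapped. The black bar marks the lower bound for Cd163 (1.76 on the log2 scale), and Pparg is the only point below 0.

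The contrast of interstitial with alveolar genes was then formed. Relative to the CD109+/+ mean, Cd163, Stab1 and Siglec1 averaged 1.34 and 1.34 on the CD109-/- arrays and -0.13 and 0.13 on the CD109+/+ arrays. Marco, Chil3 and Pparg averaged 0.43 and 0.00 on the CD109-/- arrays and 0.47 and -0.47 on the CD109+/+ arrays. The interstitial difference was thus 1.34, the alveolar difference 0.22 and the gap between them 1.12, with 0.90 and 1.33 on the CD109-/- arrays and -0.60 and 0.60 on the CD109+/+ arrays. With an array left out in turn the gap was 0.52 (without CD109+/+ replicate 1) to 1.72 (without CD109+/+ replicate 2). Much of the gap came from Cd163. With Cd163 at its bound the interstitial difference was 1.02, and on Stab1 and Siglec1 alone it was 0.65. The latter joined 1.04 for Siglec1 with 0.26 for Stab1. On these 2 genes the gap was 0.43, and the groups overlapped, with 0.24 and 0.63 on the CD109-/- arrays and -0.45 and 0.45 on the CD109+/+ arrays. With normexp the gap was 0.19. No p is given for these means, since they are scores over chosen genes. Which macrophages expressed each gene, Siglec1 included, was not tested, so the gap is not a comparison of cell populations.

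Longer lists of the same populations, which held none of the 10 genes, did not show that order, although the difference between the lists was not tested. Of 24 alveolar macrophage genes 22 had higher values in CD109-/- tumours, with a median difference of 0.72. At an unadjusted p under 0.05 there were 10 higher and 1 lower, and 0 passed limma's adjusted threshold. The cholesterol transporter gene Abcg1 differed by 1.22 ± 0.21, the oxidised LDL receptor gene Olr1 by 1.18 ± 0.23 and the proton pump subunit gene Atp6v0d2 by 0.97 ± 0.21 (limma adjusted p = 0.504, 0.507 and 0.507). Of 22 interstitial and tissue-resident macrophage genes tested, 17 had higher values, with a median of 0.35, and at an unadjusted p under 0.05 there were 3 higher and 1 lower. The 3 named by their t were the transglutaminase gene F13a1 at 1.81 ± 0.24, the lectin gene Clec10a at 1.70 ± 0.31 and the folate receptor gene Folr2 at 1.01 ± 0.30 (limma adjusted p = 0.412, 0.504 and 0.582). Only 1 CD109+/+ array had Folr2 well above background. Timd4, Cd209f and Vsig4, also markers of resident macrophages, were not well above background on any array. The summed signal of the alveolar list, in units of the 75th percentile, was 347 and 296 on the CD109-/- arrays and 256 and 259 on the CD109+/+ arrays. Such a sum rests on its brightest genes. Ccl6 had log2 signals of 6.75 and 6.37 in CD109-/- tumours, against 5.70 and 5.32 in CD109+/+ tumours, and the sum was not formed without it. Fabp5, with the highest mean log2 signal of the list, was lower in CD109-/- tumours, with 5.93 and 5.88, against 6.47 and 6.63. The sums of the interstitial list overlapped at 290 and 387 on the CD109-/- arrays and 286 and 384 on the CD109+/+ arrays. Apoe had the highest mean log2 signal of that list, with 5.76 and 5.13 on the CD109-/- arrays and 6.57 and 6.37 on the CD109+/+ arrays. Cbr2 was brighter than Apoe on all arrays but CD109+/+ replicate 1, with 6.40 and 7.15 on the CD109-/- arrays and 3.84 and 6.40 on the CD109+/+ arrays. With each array left out in turn, the median was 0.64 to 0.83 for the alveolar list and 0.26 to 0.49 for the interstitial list.

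**Figure D3:**
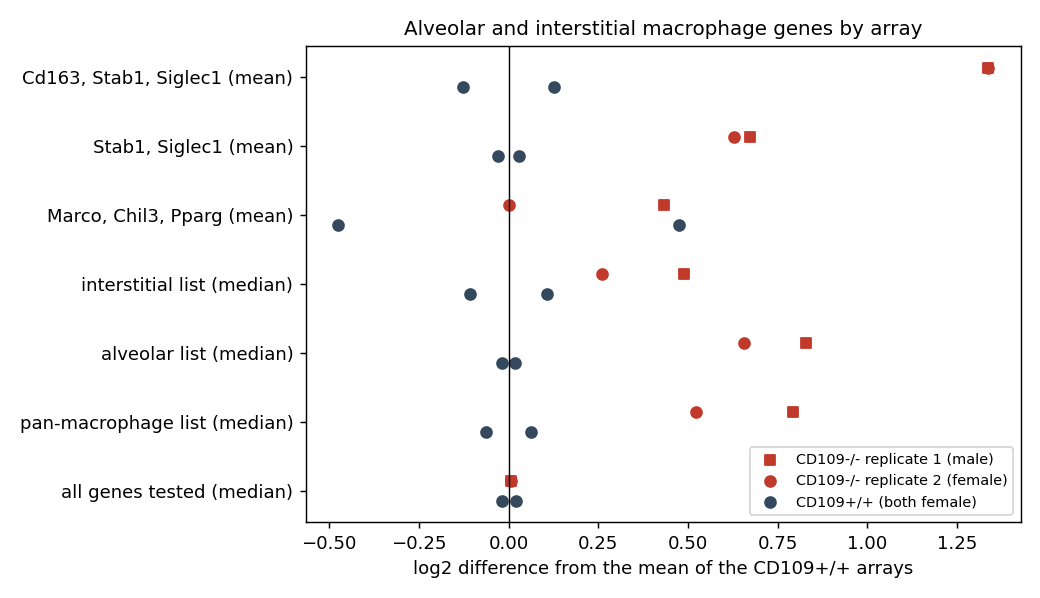
Mean or median log2 difference from the CD109+/+ mean on each array, for the 3 interstitial and 3 alveolar member genes, for the longer lists and for all genes tested; red marks are CD109-/- arrays (square, male) and blue-grey circles CD109+/+ arrays. The interstitial members stand at 1.34 on both CD109-/- arrays, the alveolar members overlap between genotypes, and in the longer lists the alveolar median difference of 0.72 exceeds the interstitial one of 0.35.

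General macrophage genes gave a yardstick on the same arrays. Of 18 such genes tested, 16 had higher values in CD109-/- tumours, with a median difference of 0.68 and a mean of 0.60. Their summed signal, in units of the 75th percentile, nonetheless overlapped, with 605 and 481 on the CD109-/- arrays and 510 and 410 on the CD109+/+ arrays, Lamp1 being the brightest. The pore-forming gene Mpeg1 differed by 1.05 ± 0.22, the NADPH oxidase gene Cybb by 1.12 ± 0.23 and Ptprc, which encodes the leukocyte antigen CD45, by 1.02 ± 0.22, each with a limma adjusted p of 0.507. Single genes of the list ranged from -0.50 to 1.26. Its bright genes Lamp1, Cd63, Ctsd and Lgals3 differed by 0.23, -0.21, 0.47 and 0.18, which lowered the mean, and which cells gave their signal was not tested. Siglec1 at 1.04 and Adgre1 at 0.94 lay below Mpeg1 and Cybb. Relative to the mean of this list, 4 members stood higher, namely Cd163 at 2.10 (1.16 at its bound), Mrc1 at 0.60, Siglec1 at 0.43 and Adgre1 at 0.33, each without overlap. Cd68, Stab1 and Pparg stood below the list at -0.06, -0.34 and -0.85, each without overlap. With 2 arrays per genotype even a value as near to that of the list as the one of Cd68 can be without overlap. Msr1 at -0.01, Marco at -0.06 and Chil3 at -0.24 had no settled side, with ranges of -0.64 to 0.61, -0.88 to 0.75 and -0.65 to 0.16 when each array was left out in turn. Such a ratio shows unequal differences within an array and not that a gene stayed the same. The share of all genes that stood higher, or did not overlap, on this relative scale was not computed. The list mean itself differed by 0.60, so the shares given above for all genes do not carry over to it. With each array left out in turn the relative value stayed between 0.57 and 0.64 for Mrc1, between 0.23 and 0.43 for Adgre1 and between -1.35 and -0.35 for Pparg. With normexp the relative value was -0.13 for Cd163 and 0.04 for Siglec1.

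Genes that PPAR-gamma is known to drive were read beside Pparg. Of 17 such genes tested 14 had higher values, with a median of 0.42, and 4 had an unadjusted p under 0.05, all higher. With an array left out in turn the median was 0.24 (11 of 17 higher, without CD109+/+ replicate 2) to 0.70 (13 of 17, without CD109-/- replicate 2). The fatty acid binding protein gene Fabp4 differed by 0.80 ± 0.23 and the lipoprotein lipase gene Lpl by 0.81 ± 0.21 (limma adjusted p = 0.573 and 0.543). Fabp4, Lpl, Abcg1 and Cidec also stood in the alveolar list. The adipocyte genes Adipoq and Plin1 were not well above background on any array and Cfd on 1, a CD109+/+ array, while 1 of the 3 adipocyte genes tested had a higher value. Of 14 genes of alternative activation tested, the programme that includes the Chil3 family, 11 had higher values with a median of 0.76 (0.45 with normexp). At an unadjusted limma p under 0.05 there were 6, all higher. Cd209a and Ccl24, both among these 6, were well above background on only 1 CD109+/+ array and were tested through the CD109-/- arrays. With signal required on all 4 arrays 9 of 12 genes had higher values, with a median of 0.63. Besides Clec10a, the lectin gene Cd209a differed by 2.55 ± 0.59, being well above background on 1 CD109+/+ array, and the transcription factor gene Irf4 by 1.42 ± 0.37 (limma adjusted p = 0.516 and 0.544). Cd209a and Irf4 are also expressed by dendritic cells.

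For scavenger receptor genes outside the member set the split depended on the arrays used. Of 19 tested, 8 had higher and 11 lower values, with a median of -0.02. On the females alone, without CD109-/- replicate 1, 14 of 20 had higher values, with a median of 0.24. With sex as a covariate, which rests on the same arrays for the difference, 13 of 19 did. At an unadjusted p under 0.05 there were 4 higher and 1 lower. Besides Olr1, Cd163l1, a relative of Cd163 known from gamma delta T cells in mice, differed by 1.76 ± 0.37 (limma adjusted p = 0.507). Scara3, a class A relative expressed outside macrophages, differed by -1.15 ± 0.43 (limma adjusted p = 0.669).

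Markers of other cells, some of which carry these receptors, were read on the same arrays, and their part in the member differences was not tested. By limma 0 of these marker genes passed an adjusted p of 0.05, and at an unadjusted p under 0.05 a list had 0 lower and at most 4 higher (the dendritic cell list). Flt3 and Cd209a, counted among those 4, were well above background on only 1 CD109+/+ array and were tested through the CD109-/- arrays. Of 7 dendritic cell genes tested 5 had higher values with a median of 0.95 (0.52 with normexp). With signal required on all 4 arrays 3 of 4 did, with a median of 0.80. The summed signal of the 7 genes, in units of the 75th percentile, was 87.8 to 94.0 on the CD109-/- arrays and 116 to 121 on the CD109+/+ arrays. Siglech was the brightest. Of 7 lymphatic and sinusoidal endothelial genes 5 were higher, the median being 0.51, or 0.26 (4 of 6) with signal required on all 4 arrays. The sums were 18.4 to 36.8 on the CD109-/- arrays and 22.2 to 23.5 on the CD109+/+ arrays. Flt4 was not well above background on any array. Of 5 monocyte genes 3 were higher, the median being 0.15, and the sums were 54.8 to 107 on the CD109-/- arrays and 40.0 to 82.1 on the CD109+/+ arrays. Neutrophil genes were split, with 5 of 10 higher and sums of 98.4 to 140 on the CD109-/- arrays and 92.6 to 95.4 on the CD109+/+ arrays. T and NK cell genes were higher in 5 of 6, the median being 0.97, or 0.44 with normexp and 1.47 (6 of 7) without CD109-/- replicate 2 (sums 5.72 to 5.93 in CD109-/- and 4.16 to 5.62 in CD109+/+), with Cd8a on 1 array and Ncr1 on none. B and plasma cell genes were higher in 3 of 6 (5.62 to 5.72 in CD109-/- and 1.85 to 3.71 in CD109+/+). Fibroblast genes were higher in 7 of 7, the median being 0.79 (43.8 to 50.8 in CD109-/- and 29.3 to 32.5 in CD109+/+). Blood vessel endothelial genes were higher in 6 of 6, the median being 0.23 (13.3 to 16.0 in CD109-/- and 11.5 to 16.3 in CD109+/+), but in 3 of 6 without CD109-/- replicate 2, with a median of -0.0015, and the median was 0.41 without CD109-/- replicate 1. Eosinophil genes rested on 2 of 5, since Epx and Prg2 were not well above background on any array and Ccr3 on 1, a CD109+/+ array. Tumour epithelial genes were higher in 3 of 9, the median being -0.18 (956 to 1167 in CD109-/- and 1098 to 1397 in CD109+/+).

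The members also differed in how alike they were over the 4 arrays. The closest pair was Mrc1 and Siglec1, with a root mean square distance of 0.12 between their centred log2 values, followed by Mrc1 and Adgre1 at 0.16, and the farthest pair among the 9 genes well above background on all 4 arrays was Mrc1 and Pparg at 0.82. The interstitial mean takes in Cd163 values below background, and the genes outside the member set nearest to it were Scrn1, Cyria, Serpini1, AI662270 and Wdfy4 (distances 0.04 to 0.09). Nearest to the mean of Stab1 and Siglec1 alone, a profile added after the data were seen, were Eps15, Fut10, Il11ra1, Tmem200a and Itga4 (0.01 to 0.03). Nearest to the alveolar mean were Tspo, Flnc, Dok1, Myof and Slc2a4 (0.03 to 0.05). With 4 arrays such likeness is a description of few values.

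**Figure D4:**
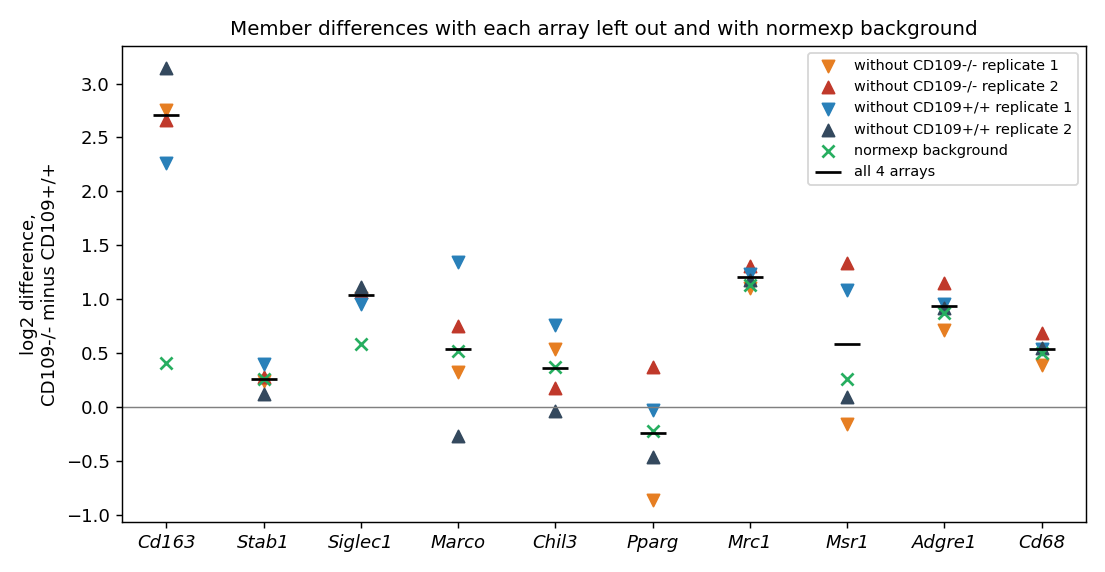
Log2 difference, CD109-/- minus CD109+/+, of each of the 10 genes with all 4 arrays (black line), with each array left out in turn (triangles) and with normexp background correction (green cross). Cd163, Stab1, Siglec1, Mrc1, Adgre1 and Cd68 stay above 0 in each of these, Cd163 standing at 0.41 with normexp, while Marco, Chil3, Pparg and Msr1 cross 0 when 1 array is left out.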

How the data were processed

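Total RNA (100 ng) of 4 lung tumour samples was labelled with Cy3 and hybridised to Agilent arrays of 1 colour (per the labels' protocols). The authors' scanner files, made with Agilent Feature Extraction 12.1.0.3 per the file headers, hold linear intensity; the processed signal is background-subtracted and detrended within the array and not scaled between arrays. A deposited table of processed intensity equals these values times 1 constant per array (1.04 and 1.08 on the CD109-/- arrays, 1.19 and 1.21 on the CD109+/+ arrays; column medians 59.5 and 69.2, against 58.8 and 76.1; not centred; the sources used here do not say how the constant was set) and served as an alternative.

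Control and outlier spots were left out, spots of a probe averaged, and log2 values taken relative to each array's 75th percentile. Probes were named by unversioned accession through a RefSeq table of GRCm38.p6 (34566 of 56605 probes); the array files use another build, so the coordinates given are those of the RefSeq promoters alone. A probe was tested when well above background in both samples of a genotype (35769 probes), and a gene was its brightest tested probe (16443 genes). Where 1 genotype was below background, the fold is a bound against the higher of the probe's value and the lowest value well above background. That floor is lenient, since a probe can lie above it and not be well above background, so the bound is not a strict minimum. Genotypes were compared with limma 3.58.1 in R 4.3.3 (lmFit, eBayes, no covariates, Benjamini-Hochberg), which was tested on simulated data. Members, lists, tests and alternatives were chosen with earlier results of these data known. Named were all members, Cd109, Chil4, 3 genes per list by absolute moderated t and the 5 genes nearest each mean profile, of which epithelial and other cell markers are given as counts. Alternatives were other background corrections, scalings, filters and designs, and each array left out; a genotype left with a single array was assumed to vary like the other. Normexp ran on median spot signals, as mean signals were not used here. All arrays lay on 1 slide and in 1 scan session, so neither was tested as a batch.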

Additional observations from a re-analysis of the deposited data

How the results depend on the processing

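With 2 arrays per genotype, limma called 0 genes at an adjusted p under 0.05 under each of the 14 alternatives run, and 1219 genes had an unadjusted p under 0.05 with all arrays. That count was 1898 with the replicate block and 634 to 2012 with an array left out (634 without CD109+/+ replicate 1, 2012 without CD109-/- replicate 2). Same-numbered samples deviated together (r = 0.36 across genes), but with 2 pairs the numbers are only names; the block changed no call of a member. Between 7 and 10 members were higher under the alternatives (8 of 9 where signal on all 4 arrays was required, which dropped Cd163 and left the interstitial mean without a value). The share of all genes with higher values was 47.4% (without CD109+/+ replicate 2) to 54.8% (median scaling). Cd163, Mrc1, Siglec1, Stab1, Adgre1 and Cd68 kept their direction under every alternative run. Not every alternative could change it. The authors' values, the mean-variance trend and the replicate block left each member difference as it was. As CD109-/- replicate 1 was the only male, sex as a covariate gave the same member differences as leaving that array out. Msr1 stood at -0.16 with sex as a covariate and without CD109-/- replicate 1, Marco at -0.27 and Chil3 at -0.040 without CD109+/+ replicate 2, and Pparg at 0.37 without CD109-/- replicate 2; the cause was not tested. With an array left out in turn the ranges were -0.16 to 1.33 for Msr1, -0.27 to 1.34 for Marco, -0.040 to 0.76 for Chil3 and -0.86 to 0.37 for Pparg. The alveolar mean difference was -0.26 to 0.69 with an array left out. Normexp, which adds an offset and ran on median spot and background signals, gave 0.42 for the interstitial mean and 0.19 for its gap to the alveolar mean. Which of these changes lowered the values was not tested. Added after the data were seen, Cd163 at its bound gave an interstitial mean of 1.02, and without Cd163 it was 0.65 and the gap 0.43. Relative to the mean of general macrophage genes 4 members stood higher, with 4 to 7 when an array was left out (7 without CD109+/+ replicate 1). The count was 3 with normexp and 3 of 9 where signal on all 4 arrays was required. The share of all genes on this relative scale was not computed.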
